A study of Homo sapiens with 30 samples.

Results

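HT1080, a human fibrosarcoma cell line, was assayed by global run-on sequencing (GRO-seq) with nucleotides supplied to its nuclei (with NTP) and without them (no NTP). The comparison below is between the wild-type (WT) libraries with NTP and the WT libraries with no NTP, 3 of each, chosen by their labels. They are 6 of the 30 libraries of the series and 6 of its 18 run-on libraries. The other 12 run-on libraries carry the labels hNABP2 KO and hNABP1 KO, and the remainder of the series is chromatin and RNA:DNA hybrid sequencing. The nuclei of all 6 WT libraries came from cells at passages 10 to 15 that had no treatment, and the RNA of all of them was pulled down with a BrdU antibody and made into strand-marked libraries with random primers. The repeat numbers pair a library with NTP with one without. The labels speak of 2 independent experiments where 3 repeats are given, so how far the repeats are separate cultures is not known, and n, SD and p count libraries.

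In a run-on, nuclei are isolated so that RNA polymerases stop on the gene they were transcribing, and the polymerases resume when nucleotides that include a bromouridine are supplied. The new stretch of RNA carries the bromouridine, and an antibody against it pulls that RNA out. RNA that was finished before the nuclei were isolated carries no label, and with no nucleotides supplied nothing can be extended, so a library with no NTP holds what the pull-down carries along unlabelled. Ribosomal RNA (rRNA), the small RNAs made by RNA polymerase III and spliceosomal and nucleolar RNAs are the most abundant finished RNAs of a nucleus, while most protein-coding and long non-coding RNA (lncRNA) genes are read by RNA polymerase II.

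The libraries with NTP held 11981, 5883 and 164357 gene counts in repeats 1, 2 and 3, against 9220, 5272 and 19247 with no NTP. The library with NTP thus held 1.30, 1.12 and 8.54 times the counts of its partner. Genes with a count numbered 5127, 2593 and 20345 with NTP and 3430, 2402 and 8699 with no NTP, of 26475 genes in the table, and 50 to 6653 genes with NTP and 41 to 94 with no NTP reached 10 counts. A class at 0 in the smallest library could still hold up to 0.0569% of it (3 counts of the total). All intervals and floors cover counting error only. Of 12 mesenchymal markers, 12 had a count with NTP and 10 with no NTP, with a summed share of 0.179% to 2.55% with NTP and 0.878% to 2.54% with no NTP. The highest shares, those of repeat 2, rested on COL5A1, which alone held 2.43% with NTP and 2.52% with no NTP. VIM had 0 counts with NTP and 1 with no NTP in that repeat. Of 8 epithelial markers 7 and 2 had a count, of 8 leukocyte markers 6 and 2, and of 8 neural markers 8 and 3. A count in any library of the group was enough, and repeat 3 with NTP was by far the deepest. Epithelial markers summed to at most 0.292% with NTP and 0.260% with no NTP, and neural markers to at most 0.0501% and 0.0260%. KRT14, CD3E and LYZ were at 0 in all 6 libraries, and leukocyte markers summed to at most 0.0219% with NTP and 0.0364% with no NTP. The keratin gene KRT8 stood out among the epithelial genes, with 29, 3 and 11 counts with NTP and 22, 3 and 0 with no NTP.

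The libraries resembled their repeat more than their condition. Over the 146 genes with a mean of 500 CPM (counts scaled to a common library total) or more, log2(CPM + 100) values correlated at 0.843, 0.821 and 0.636 between the libraries with and without NTP of repeats 1, 2 and 3, and at 0.141 to 0.507 between libraries of different repeats. These values describe likeness across genes of shared libraries, and genes are not independent replicates. In repeat 2 the library with NTP and the one with no NTP differed by no more than sampling noise when summed over the 134 genes with 10 or more counts in the pair (chi-square per gene 1.07, p = 0.265), although 1 of these genes, RMRP, differed on its own. In repeat 1 the chi-square per gene was 3.01 over 236 genes and in repeat 3 it was 3.61 over 7513 genes, while libraries of one condition in different repeats gave 4.87 to 25.8. Every result below is therefore given by repeat.

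Ribosomal RNA took a smaller share of the counts with NTP than with no NTP in each of the 3 repeats. The rRNA genes held 7.75%, 10.3% and 0.684% of the counts with NTP and 13.1%, 12.4% and 2.02% with no NTP. The groups overlapped because repeat 3 lay far below repeats 1 and 2 in both conditions. Mean shares were 6.25% ± 4.99 with NTP and 9.18% ± 6.21 with no NTP (SD, n = 3 each), and the difference of -2.93 points was within the spread between libraries (exact permutation test, two-sided, p = 0.5, adjusted over the classes p = 0.9). With the repeats as pairs the exact sign-flip p was 0.25. The exact test of 3 libraries against 3 cannot go below p = 0.1, and that of 3 pairs cannot go below 0.25. The Clopper-Pearson 95% intervals of the share were 7.28% to 8.25% with NTP and 12.4% to 13.8% with no NTP in repeat 1, and 9.55% to 11.1% with NTP and 11.5% to 13.3% with no NTP in repeat 2. In repeat 3 they were 0.645% to 0.726% with NTP and 1.82% to 2.22% with no NTP. The 2 intervals of a repeat did not overlap, and in repeat 2 they came close to each other.

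**Figure D1:**
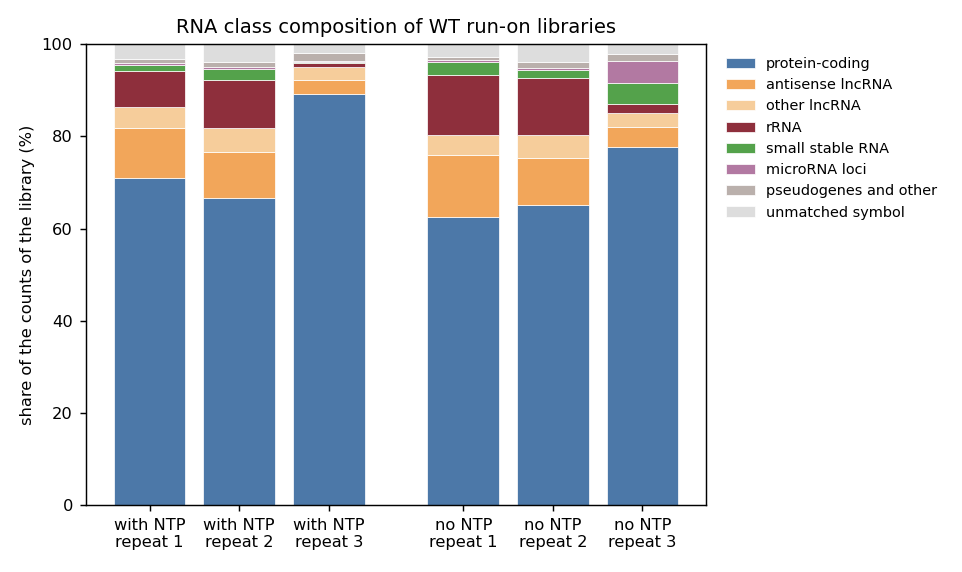
Stacked bars of the share of gene counts (%) in each RNA class for the 3 WT libraries with NTP and the 3 with no NTP. The protein-coding part is 70.9%, 66.6% and 89.3% with NTP and 62.5%, 65.2% and 77.6% with no NTP, and repeat 3 differs from repeats 1 and 2 in both conditions.

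Only 4 of the 21 rRNA genes had a count. RNA28S5, the large-subunit rRNA of mature ribosomes, had 761, 554 and 300 counts with NTP and 1034, 594 and 119 with no NTP. As CPM that was 63517, 94170 and 1825 CPM with NTP and 112148, 112671 and 6183 CPM with no NTP, lower with NTP in each repeat. RNA45S5, the precursor that RNA polymerase I transcribes and that contains the same large-subunit sequence, had 13855, 9009 and 4910 CPM with NTP and 18764, 11381 and 9612 CPM with no NTP. Reads of the shared sequence could have been given to either gene, so the split between these 2 is uncertain. In repeats 1 and 2 the mature RNA held several times the counts of the precursor, in both conditions. In repeat 3 the precursor held more, with 807 against 300 counts with NTP and 185 against 119 with no NTP. RNA5S9, a 5S rRNA gene read by RNA polymerase III, had 0, 0 and 9 counts with NTP and 1, 1 and 82 with no NTP.

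Small stable RNA (small nuclear, nucleolar, signal recognition particle, 7SK and RNase RNAs) did not move one way. This class held 1.31%, 2.50% and 0.239% of the counts with NTP and 2.89%, 1.63% and 4.60% with no NTP, lower with NTP in repeats 1 and 3 and higher in repeat 2. The mean difference of -1.69 points was within the spread (exact permutation p = 0.2, adjusted p = 0.9). It was -0.555 points without RN7SK and -0.354 points without repeat 3 of both groups. Of its 492 genes, 101 had a count with NTP and 56 with no NTP.

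Within the class the direction depended on the gene and the repeat. RN7SK, whose RNA keeps the elongation factor P-TEFb inactive, had 2170, 4420 and 864 CPM with NTP and 3471, 3035 and 35018 CPM with no NTP. The 674 counts of RN7SK with no NTP in repeat 3 set it apart from the other 5 libraries, which held 16 to 142. RMRP, the RNA of the RNase MRP that cuts precursor rRNA, had 6761, 14278 and 402 CPM with NTP and 11063, 6829 and 2338 CPM with no NTP. It was lower with NTP in repeats 1 and 3 and higher in repeat 2. RPPH1, the RNA of RNase P, which trims transfer RNA, had 1, 0 and 4 counts with NTP and 14, 3 and 0 with no NTP. The signal recognition particle RNAs RN7SL1 and RN7SL2 had 13, 0 and 7 and 7, 1 and 7 counts with NTP, and 22, 1 and 0 and 28, 2 and 1 counts with no NTP. These 2 are near-identical copies whose reads the counting could have split either way.

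Nucleolar RNAs that are cut out of introns showed the same dependence on the repeat. SNORA73A had 3, 3 and 1 counts with NTP and 18, 2 and 3 with no NTP. SNORD68 had 0, 1 and 6 counts with NTP and 0, 0 and 44 with no NTP, and SNORD25 had 0, 0 and 7 with NTP and 0, 0 and 39 with no NTP. In both of these genes most counts of either condition lay in repeat 3. The list of RNA polymerase II small nuclear RNAs, which includes the spliceosomal RNAs, held less of the counts with NTP in each repeat. Its shares were 0.0167%, 0.0850% and 0.0146% with NTP and 0.0976%, 0.0948% and 0.0208% with no NTP (exact permutation p = 0.2, adjusted over 12 lists p = 0.8). These directions rest on few counts, 31 over the libraries with NTP and 18 over those with no NTP. RNU2-2P, its highest gene, had 4 counts in both libraries of repeat 2. RNA polymerase III transcripts held 1.07%, 1.89% and 0.139% with NTP and 2.15%, 1.12% and 3.74% with no NTP, which again put repeat 2 opposite to repeats 1 and 3.

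**Figure D2:**
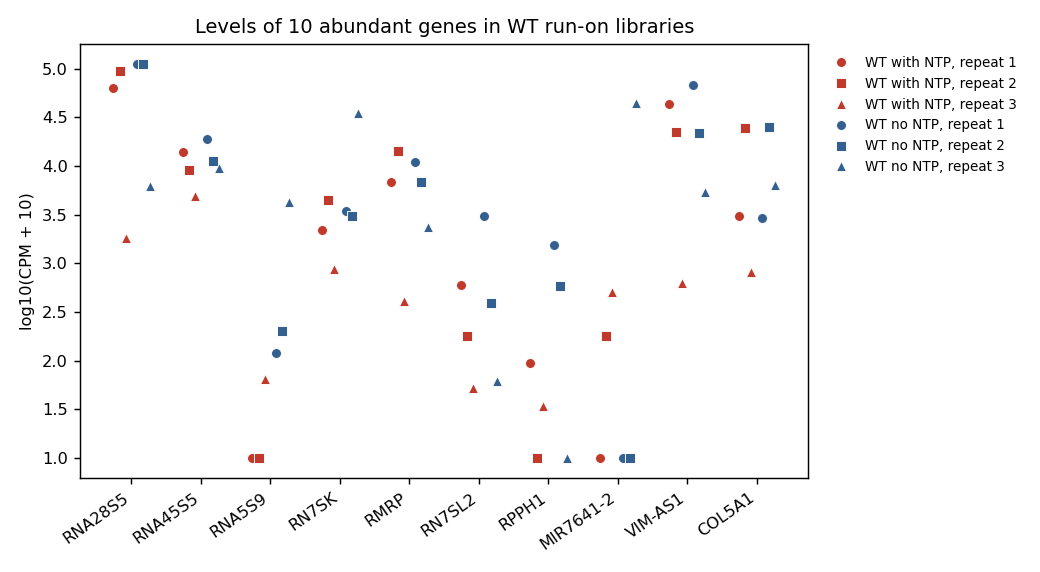
Level of 10 abundant genes, as log10(CPM + 10), in each WT library, with NTP in red to the left and no NTP in blue to the right of each gene, and a marker shape for each repeat. RNA28S5 spans 1825 to 94170 CPM with NTP and 6183 to 112671 CPM with no NTP, and MIR7641-2 and RN7SK with no NTP in repeat 3 lie far above their other libraries.

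Protein-coding genes took a larger share with NTP in each repeat. They held 70.9%, 66.6% and 89.3% of the counts with NTP and 62.5%, 65.2% and 77.6% with no NTP, so the gain was 8.41, 1.44 and 11.7 points in repeats 1, 2 and 3. The mean difference of 7.17 points lay within the spread between libraries (75.6% ± 12.0 with NTP, 68.4% ± 8.06 with no NTP, SD, n = 3 each, exact permutation p = 0.5, adjusted p = 0.9). The paired sign-flip p was 0.25, the smallest that 3 pairs can give. With rRNA and small stable RNA left out of the total, the protein-coding share was still higher with NTP on average, by 3.71 points. That total still held the microRNA locus MIR7641-2, with 81 counts with NTP and 863 with no NTP in repeat 3. Over the 6 other settings that kept all libraries or left out the whole of repeat 3, the protein-coding difference ran from 3.71 to 7.38 points. Without the library with NTP of repeat 3 it was 0.339 points.

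The protein-coding genes with the highest mean level were COL5A1, PLEC, SNX22, TTN, MFSD11 and SPNS2. COL5A1, a fibrillar collagen of connective tissue cells, had 37, 143 and 131 counts with NTP and 27, 133 and 123 with no NTP. As a share of the library COL5A1 was nearly equal in repeats 1 and 2, at 3088 and 24307 CPM with NTP and 2928 and 25228 CPM with no NTP, and lower with NTP in repeat 3, at 797 CPM against 6391 CPM. PLEC, which codes for the cytolinker plectin, had 2421, 6969 and 651 CPM with NTP and 3905, 5690 and 1767 CPM with no NTP. TTN, the muscle protein titin with one of the longest coding sequences known, had 26, 21 and 67 counts with NTP and 9, 24 and 23 with no NTP. No direction was shared by the 3 repeats in either gene.

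Gene span did not separate the conditions. Of the protein-coding counts, genes over 100 kb held 16.9%, 16.01% and 19.5% with NTP and 15.0%, 17.8% and 18.5% with no NTP. Genes under 10 kb held 23.8%, 29.5% and 20.004% with NTP and 25.2%, 28.3% and 21.3% with no NTP. Both differences were smaller than the SD of either group (exact permutation p = 0.8 each).

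Housekeeping messenger RNAs, such as ACTB, ENO1 and HSP90AB1, held less of the library with NTP in each repeat. Their 20 genes summed to 0.509%, 0.0510% and 0.262% with NTP and 1.64%, 0.171% and 0.301% with no NTP (exact permutation p = 0.6, adjusted p = 0.9). Their gap was widest in repeat 1, where the glycolytic enzyme gene ENO1 had 2 counts with NTP and 13 with no NTP and the translation factor gene EEF1A1 had 2 and 12. Without the no NTP library of repeat 1 the difference of the means turned to 0.0379 points. Replication-dependent histone genes, whose short messages lack a poly(A) tail, held more with NTP in each repeat, at 0.384%, 0.153% and 0.106% with NTP and 0.206%, 0.0948% and 0.0935% with no NTP (exact permutation p = 0.5, adjusted p = 0.9). HIST2H2AB, which codes for histone H2A, had 13, 4 and 8 counts with NTP and 0, 3 and 2 with no NTP. As CPM that was 1085, 680 and 48.7 with NTP and 0, 569 and 104 with no NTP, so it was lower with NTP in repeat 3. Without the library with NTP of repeat 1 the difference of the histone list was -0.00175 points.

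Immediate early genes, which are induced within minutes of a stimulus and give short-lived messages, held 0.117%, 0.170% and 0.254% with NTP and 0.0868%, 0.190% and 0.166% with no NTP. Their share was higher with NTP in repeats 1 and 3. CYR61, a secreted matrix protein gene, had 5, 1 and 26 counts with NTP and 2, 3 and 3 with no NTP. As CPM that was 417, 170 and 158 with NTP and 217, 569 and 156 with no NTP, so it was nearly level in repeat 3. Cytosolic ribosomal protein genes held 0.618%, 0.289% and 0.465% with NTP and 1.182%, 0.209% and 0.379% with no NTP, and snoRNA host genes 0.2003%, 0.0340% and 0.113% with NTP and 0.271%, 0.0190% and 0.0572% with no NTP, both higher with NTP in repeats 2 and 3 and lower in repeat 1. None of these lists differed beyond the spread between libraries (exact permutation p from 0.5 to 1).

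The lncRNA genes together took 15.5%, 15.1% and 5.85% of the counts with NTP and 17.7%, 15.1% and 7.42% with no NTP. The mean difference of -1.23 points was within the spread (exact permutation p = 0.7, adjusted p = 0.9). Antisense genes, which lie opposite another gene, held 10.8%, 9.91% and 2.85% with NTP and 13.5%, 10.1% and 4.45% with no NTP. Other lncRNA genes held 4.67%, 5.24% and 3.01% with NTP and 4.19%, 4.97% and 2.98% with no NTP. The antisense share was lower and the other share higher with NTP in each repeat, and neither passed a test.

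VIM-AS1, antisense to the vimentin gene, was the highest lncRNA. It had 43569, 22268 and 615 CPM with NTP and 68004, 21813 and 5403 CPM with no NTP, lower with NTP in repeats 1 and 3 and level in repeat 2. VIM itself, a mesenchymal intermediate filament gene, had 9, 0 and 36 counts with NTP and 16, 1 and 31 with no NTP. Over 961 sense and antisense pairs, the antisense gene took 71.1%, 68.0% and 36.2% of the counts with NTP and 80.0%, 66.6% and 50.4% with no NTP. No source used here states the strand setting of the counting, so reads of a gene and of its antisense partner cannot be told apart. C10orf55, the highest of the other lncRNA genes, had 104, 65 and 59 counts with NTP and 91, 67 and 26 with no NTP. As CPM that was 8680, 11049 and 359 with NTP and 9870, 12709 and 1351 with no NTP, lower with NTP in each repeat.

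Nuclear-retained lncRNAs, which stay in the nucleus after they are made, were the one list whose groups did not overlap. They held 0.134%, 0.136% and 0.0998% of the counts with NTP and 0.184%, 0.171% and 0.140% with no NTP, all 3 libraries with NTP below all 3 with no NTP. The exact permutation p was 0.1, the smallest that 3 against 3 allows, and 0.8 when adjusted over the 12 lists. MALAT1, a nuclear speckle RNA, had 918, 1020 and 183 CPM with NTP and 1302, 948 and 779 CPM with no NTP, lower with NTP in repeats 1 and 3. NEAT1, which builds paraspeckles, had 250.4, 340.0 and 383 CPM with NTP and 434, 569 and 156 CPM with no NTP, lower with NTP in repeats 1 and 2. As counts, MALAT1 had 11, 6 and 30 with NTP and 12, 5 and 15 with no NTP. NEAT1 had 3, 2 and 63 counts with NTP and 4, 3 and 3 with no NTP. These were the highest genes of the list, so its gap in repeats 1 and 2 rests on few counts.

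MicroRNA loci held 0.384%, 0.357% and 0.314% with NTP and 0.434%, 0.360% and 4.73% with no NTP. The last of these values came from MIR7641-2, which had 0, 1 and 81 counts with NTP and 0, 0 and 863 with no NTP, so that 1 gene made 4.48% of the counts of the repeat 3 library with no NTP. The next loci by mean level were MIR1282 and MIR3661, with 15, 0 and 2 and 12, 4 and 4 counts with NTP, and 19, 3 and 2 and 10, 1 and 1 counts with no NTP. Counts at such loci are reads given to the locus, whatever RNA they came from, and do not measure mature microRNA. The rRNA gene RNA5S9 also had most of its counts in the repeat 3 library with no NTP, at 82. Whether MIR7641-2 and RNA5S9 share reads was not tested, and the rRNA shares above do not include MIR7641-2. The mature sequences of the MIR1282 locus (chr15:43793732-43793751, minus strand) and the MIR3661 locus (chr5:134225777-134225798, plus strand) are shown because these were the next highest microRNA loci and have an entry in the RefSeq table (GRCh38.p14), with the seed, bases 2 to 8, in capitals. Their seeds differ.
hsa-miR-1282: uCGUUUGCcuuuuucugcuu
hsa-miR-3661: uGACCUGGgacucggacagcug

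Detection at equal depth asked whether the counts were spread over more genes with NTP. Thinned to 5272 counts, the total of the smallest library, the libraries with NTP were expected to show 2959, 2408 and 4320 genes and those with no NTP 2356, 2402 and 3582. That was 603, 5.92 and 739 more genes with NTP in repeats 1, 2 and 3. The mean difference of 449 genes lay within the spread (3229 ± 984 with NTP, 2780 ± 695 with no NTP, SD, n = 3 each, exact permutation p = 0.5, paired p = 0.25). Without the library with NTP of repeat 3 the difference of the means turned to -96.5 genes. At 2 or more counts the groups did not overlap, with at least 764 genes in each library with NTP and fewer in each with no NTP, a mean difference of 59.5 genes (exact permutation p = 0.1, the smallest possible).

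**Figure D3:**
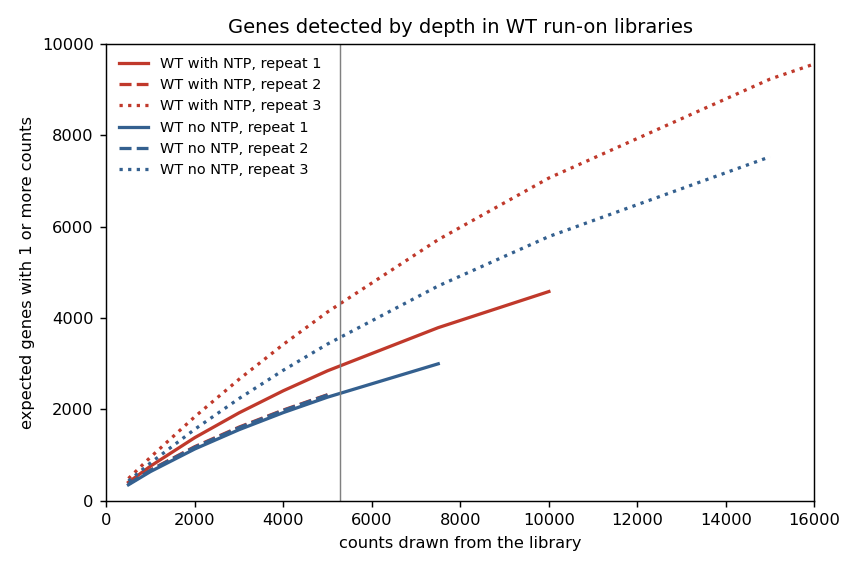
Expected number of genes with 1 or more counts (vertical axis) when each WT library is thinned to the number of counts on the horizontal axis, with NTP in red and no NTP in blue, a line style for each repeat and a grey line at 5272 counts. The horizontal axis stops short of the full depth of the deepest libraries. At the grey line the curves of repeat 3 lie highest in both conditions, at 4320 genes with NTP and 3582 with no NTP, and the curves of repeat 2, drawn to just before the line, nearly coincide, with 2408 genes with NTP and 2402 with no NTP at the line.

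By class, protein-coding genes made up most of the detected genes, with 2538, 1980 and 3866 with NTP and 2024, 1964 and 3146 with no NTP at that depth. Other lncRNA genes numbered 101, 103 and 137 against 74.0, 77 and 110 with no NTP (exact permutation p = 0.3). Small stable RNA genes went the other way in repeats 1 and 3, at 13.4, 24.2 and 7.52 with NTP and 20.3, 22 and 16.1 with no NTP. When rRNA and small stable RNA were left out before thinning, to 4531 counts, the libraries with NTP showed 2824, 2359 and 3828 genes and those with no NTP 2371, 2377 and 3331. With protein-coding genes alone, thinned to 3438 counts, the values were 2384, 1950 and 2969 with NTP and 2088, 1964 and 2730 with no NTP. In both of these, repeat 2 had fewer genes with NTP than with no NTP.

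How far the counts lay on few genes was measured next. The 10 most abundant genes of a library took 15.3%, 19.5% and 1.14% of its counts with NTP and 24.4%, 20.9% and 12.4% with no NTP, lower with NTP in each repeat (exact permutation p = 0.4, paired p = 0.25). The effective number of genes, the inverse of the chance that a random pair of counts falls on the same gene, was 153, 92.3 and 9292 with NTP and 54.8, 68.6 and 274 with no NTP. The 2 libraries of repeat 3 were the least concentrated of their groups. Depth also differed most between the libraries of that repeat, and its part in the class shares was not tested.

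Tested gene by gene over the repeats, no gene passed. The edgeR quasi-likelihood fit of all 18 run-on libraries tested 211 genes, and 0 of them had an adjusted p under 0.05 (0% called), with 1 at an unadjusted p under 0.05. DESeq2 called 0 with 1 at an unadjusted p under 0.05, and limma voom called 0 with 0. Log2 fold changes were higher with NTP for 104 genes and lower for 107, with a median of -0.005 over all tested genes, and library totals in place of TMM moved that median to 0.38. The 211 genes held 28.7%, 39.9% and 3.62% of the counts with NTP and 40.5%, 41.6% and 18.2% with no NTP, so the test covered little of repeat 3. The 5 small stable RNA genes tested had negative fold changes, with a median of -1.61, against 138 protein-coding genes with a median of 0.06 and 34 antisense genes with a median of -0.11. Of the 5, RMRP was level at -0.005 (SE 0.949), and RN7SL1 was at -0.65 (SE 1.56). Of the 211 genes, 2 (0.948%) had groups that did not overlap in CPM.

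The genes nearest to the threshold on either side did not pass and are given as values. FAM69B had 6, 6 and 15 counts with NTP and 2, 3 and 1 with no NTP, at a log2 fold change of 1.36 (SE 0.802, edgeR adjusted p = 0.997). LRTOMT had 11, 0 and 23 counts with NTP and 3, 1 and 0 with no NTP, at 2.10 (SE 1.19). The 3 others on the higher side, MBNL1-AS1, APTR and GNAI2, had fold changes of 1.33, 1.42 and 3.03. On the lower side NUCB1-AS1 had 2, 3 and 4 counts with NTP and 4, 3 and 7 with no NTP, at -1.24 (SE 0.808). DPP9-AS1 had 3, 5 and 7 counts with NTP and 5, 4 and 10 with no NTP, at -0.96 (SE 0.773). RN7SK, MIR7641-2 and SNORA73A had fold changes of -2.89, -4.90 and -1.99, and none passed. Without the no NTP library of repeat 3 RN7SK turned to 0.37 and MIR7641-2 to 6.88, and without that of repeat 1 SNORA73A was at -0.49.

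A fit of the 6 WT libraries alone with the repeat as block, over 8365 genes with 10 or more counts, called 1 gene. That gene was RNA5S9, lower with NTP, with an edgeR adjusted p of 0.0102. This setting was chosen after the data were seen, and nearly all counts of the gene were in repeat 3.

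Each repeat was also tested on its own, with an exact binomial test of each gene's counts in the 2 libraries of the repeat. Such a test compares those 2 libraries and not the conditions. In repeat 1, 17 of 236 genes were called (7.20%), 2 higher with NTP (0.847%) and 15 lower (6.36%). In repeat 2, 1 of 134 genes was called (0.746%), higher with NTP. In repeat 3, 83 of 7513 genes were called (1.10%), 0 higher and 83 lower. Depth set how many genes could be tested and in which direction they could be called. In repeat 3, with 8.54 times the counts with NTP, a gene with 0 counts in the partner needed 74 counts with NTP to be called higher. Only 7 of its 7513 genes held that many, so the count of 0 higher genes says little about direction.

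The genes called lower with NTP included rRNA and small stable RNA genes in repeats 1 and 3. Gene counts do not tell finished RNA from newly made RNA. In repeat 1, 4 of 8 small stable RNA genes tested were lower (RMRP, RN7SL2, RPPH1 and SNORA73A) with 1 of 2 rRNA genes and 9 of 157 protein-coding genes. In repeat 3, 7 of 9 small stable RNA genes were lower, 3 of 4 rRNA genes and 54 of 6972 protein-coding genes. A lower call in repeat 3 needed at least 4 counts with no NTP, and 820 of the 7513 genes tested held that many. Most genes tested there could thus not be called lower, so these fractions do not compare the classes. RMRP, RNA28S5, VIM-AS1, HSP90AB1 and SNX22 were the 5 genes called lower in both repeats, 5 of the 17 called in repeat 1 and of the 83 in repeat 3. HSP90AB1, a chaperone gene, had 9 and 19 counts with NTP and 23 and 22 with no NTP in repeats 1 and 3, which was 751 and 116 CPM with NTP and 2495 and 1143 CPM with no NTP. The gene called in repeat 2 was RMRP, with 84 counts with NTP and 36 with no NTP, 14278 CPM against 6829 CPM, opposite to its direction in repeats 1 and 3 (exact binomial, adjusted p = 0.0209 in repeat 2).

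The higher genes of repeat 1 were the histone gene HIST2H2AB, with 13 counts with NTP and 0 with no NTP, and RELN, with 11 and 0. RELN codes for the secreted protein reelin. Among the lower genes of repeat 3, EIF4E, which codes for the cap-binding translation factor, had 30 counts with NTP and 147 with no NTP, 183 CPM against 7638 CPM. COL5A1 had 131 and 123 counts, or 797 CPM with NTP and 6391 CPM with no NTP. A run of olfactory receptor genes on chromosome 11 (OR51M1, OR51Q1, OR51I2 and OR52D1, chr11:5383812-5489749, RefSeq GRCh38.p14) held all the counts of the 6 table genes in that interval. They summed to 7, 14 and 11 counts with NTP and 2, 10 and 70 with no NTP, so the interval was lower with NTP in repeat 3 and higher in repeats 1 and 2 per library total. Nasal sensory neurons are the usual place of olfactory receptor expression, and members of such a family share sequence, so their single counts are uncertain.

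Knockout libraries were used to see whether the class shifts were particular to WT. The protein-coding share was higher with NTP in 3 of 3 WT repeats and in 6 of 6 repeats of the knockout labels, by a mean of 7.17 points in WT and 6.49 points in the knockouts. The difference between them was 0.674 points (exact permutation test of 3 against 6 within-repeat differences, two-sided, p = 0.857, adjusted over the classes p = 0.857). The rRNA share was lower with NTP in 3 of 3 WT repeats and 4 of 6 knockout repeats, with means of -2.93 and -0.629 points (exact permutation p = 0.405). Small stable RNA was lower in 2 of 3 WT repeats and 6 of 6 knockout repeats, with means of -1.69 and -0.831 points (exact permutation p = 0.476). Genes detected at 5272 counts gained a mean of 449 in WT and 388 in the knockouts (exact permutation p = 0.881). No class effect in WT differed from that in the knockouts by this test, whose smallest p is 0.0238, and a p that misses the threshold does not show that they were alike. The test also shuffled the differences without regard to the repeat number, which WT and both knockout labels share. Protein-coding differences of WT, hNABP2 KO and hNABP1 KO were 8.41, 11.2 and 14.0 points in repeat 1. In repeat 2 they were 1.44, 3.39 and 3.30 points, and in repeat 3 they were 11.7, 0.485 and 6.61 points.

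**Figure D4:**
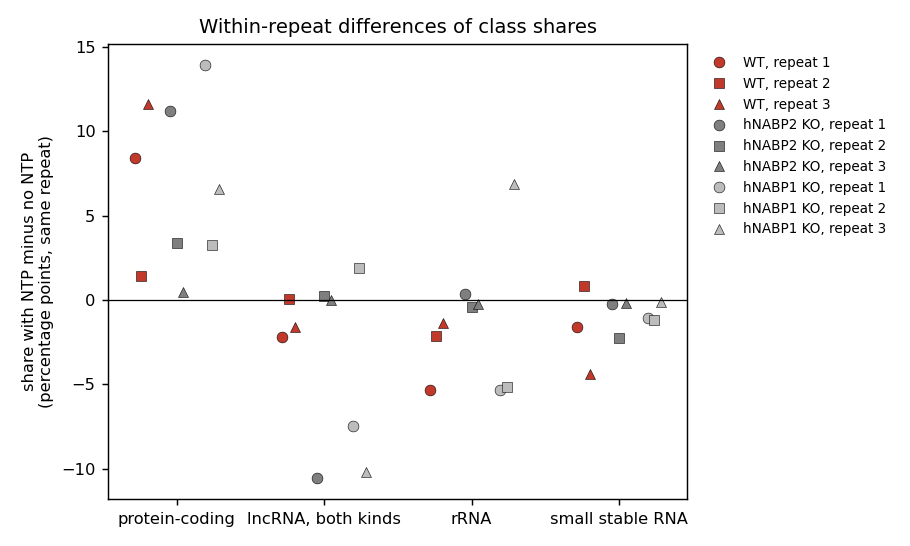
Difference of the share of counts with NTP minus no NTP within each repeat, in percentage points, for 4 RNA classes, with WT in red left of the 2 knockout labels in grey, and a marker shape for each repeat. All 9 protein-coding differences are above 0, from 1.44 to 11.7 in WT, and the rRNA differences of WT are all below 0 while those of the knockout labels lie on both sides.

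The deposited run-on peaks show where the libraries with NTP piled up on the genome. Peak lists of libraries with no NTP were not analysed here, so the peaks are a description of the libraries with NTP alone. Repeats 1, 2 and 3 had 94, 195 and 264 peaks, with a median fold enrichment of 5.13, 3.06 and 5.67 as the authors' peak lists give it. What this fold was taken over is not known. Peaks within 1 kb of a RefSeq gene start made 39.4%, 35.9% and 74.6% of them. The repeats shared few peaks, with 6 between repeats 1 and 2 (6.38% of the peaks of repeat 1 and 3.08% of those of repeat 2), and 1 between repeats 1 and 3 and between repeats 2 and 3.

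Transfer RNA genes and histone genes lay under more peaks in repeat 1 than in the other repeats. Of its 94 peaks, 18 (19.1%) lay over transfer RNA genes, which carry amino acids to the ribosome, against 3 of 195 (1.54%) in repeat 2 and 0 of 264 in repeat 3. Their fold ran from 3.92 to 11.9 in repeat 1, and 8 of the 18 were on chromosome 6. Transfer RNA genes were nearly lacking from the count table, which holds 1 of them, so the class shares above do not include them. Of the 6 peaks shared by repeats 1 and 2, 4 were in or beside transfer RNA genes in repeat 1 (TRX-CAT1-8, TRI-AAT2-1, TRF-GAA1-3 and TRP-TGG3-2).

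In repeat 2 the peaks with the highest -log10 q lay on stable RNA genes. The RMRP gene (chr9:35657777-35657983) had the highest -log10 q of the 3 lists, at 398, with a fold of 2.57. The next were in rRNA genes on chromosome 21 and on 1 unplaced contig, with a fold of 3.33 and a -log10 q of 331 at RNA28SN2, and RPPH1 (chr14:20343161-20343381) followed with 33.4. In repeat 3 the 2 peaks with the highest -log10 q lay on the mitochondrial genome, with folds of 1.54 and 1.42, which are low for a list with a median of 5.67. The next by -log10 q lay at the start of ACAP2, which codes for a GTPase-activating protein of the ARF family, with a fold of 7.46. The genes under the peaks of repeat 3 held 2.11% of the counts of the library with NTP of that repeat and 0.618% of its partner with no NTP. In the other repeats the same genes held 1.38% and 0.884% with NTP and 1.03% and 0.740% with no NTP. The genes under the peaks of repeat 2 held 1.51%, 2.72% and 1.22% with NTP and 2.04%, 1.44% and 1.40% with no NTP, so they were lower with NTP outside their own repeat. The genes under the peaks of repeat 1 held 0.392%, 0.136% and 0.395% with NTP and 0.434%, 0.152% and 0.301% with no NTP, higher with NTP in repeat 3 alone. Each set was chosen by peaks of 1 library with NTP, so the value of that library is no independent evidence.

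**Figure D5:**
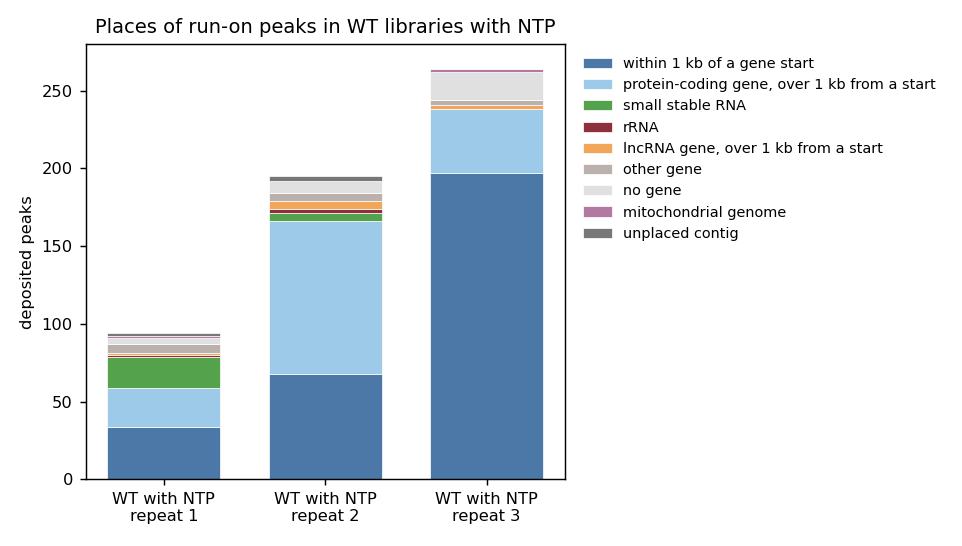
Number of deposited run-on peaks in each WT library with NTP, stacked by place, with peaks in rRNA and small stable RNA genes set aside before the distance to a gene start was read. Peaks at gene starts number 34, 68 and 197 in repeats 1, 2 and 3, and small stable RNA peaks number 20, 5 and 0.

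The 5 histone genes with a peak in repeat 1 were H4C2, H3C2, H2BC5, H2AC4 and H2BC4, all in the cluster on chromosome 6, and repeats 2 and 3 had no peak in such a gene. Their folds were 3.44, 2.24, 2.17, 2.26 and 1.64. The centre of each peak lay 209 to 249 bases downstream of the gene start. The 100 bases before each start are printed from the RefSeq promoter table (GRCh38.p14) so that the 5 can be compared, and no marked motif is in all of them. Capitals mark the motif TATAAA, the motif CCAAT and the motif GGGCGG on either strand. Positions are chr6:26027284-26027383 for H4C2, chr6:26032100-26032199 for H3C2, chr6:26033619-26033718 for H2AC4 and chr6:26123927-26124026 for H2BC4, all on the minus strand, and chr6:26158021-26158120 for H2BC5 on the plus strand.
H4C2: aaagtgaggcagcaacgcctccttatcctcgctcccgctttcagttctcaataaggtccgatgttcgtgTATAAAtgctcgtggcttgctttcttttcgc
H3C2: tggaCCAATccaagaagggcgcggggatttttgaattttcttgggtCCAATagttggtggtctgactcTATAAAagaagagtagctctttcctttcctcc
H2AC4: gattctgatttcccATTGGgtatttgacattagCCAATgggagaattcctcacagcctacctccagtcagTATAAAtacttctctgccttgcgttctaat
H2BC4: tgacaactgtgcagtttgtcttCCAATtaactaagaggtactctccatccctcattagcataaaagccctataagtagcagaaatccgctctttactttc
H2BC5: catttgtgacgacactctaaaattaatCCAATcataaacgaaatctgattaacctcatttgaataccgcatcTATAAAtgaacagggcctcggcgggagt

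Of these 5 windows 4 (80.0%) held TATAAA, 4 held CCAAT and 0 held GGGCGG. Over all 64 replication-dependent histone promoters in the table the shares were 54.7%, 82.8% and 21.9%, and over all 35116 promoter windows of the same length they were 4.99%, 18.1% and 31.3%. The windows under the promoter peaks of repeat 3 differed from those of the histone genes, with TATAAA in 0.392%, CCAAT in 27.8% and GGGCGG in 61.6% of 255 windows. In repeat 1 GGGCGG was in 53.8% of 26 windows and in repeat 2 in 77.1% of 35. The search read both strands, and a match is only a match of letters. Beside the histone windows stands that of 1 other gene for each repeat. It had the highest -log10 q among peaks that overlapped the promoter of the protein-coding gene with the nearest start. Chromosome Y and 1 autosome were left out of this choice, and the autosome also of the shares under peaks. The genes were PPAT for repeat 1 (chr4:56435616-56435715, a purine synthesis enzyme gene), MDN1 for repeat 2 (chr6:89819795-89819894, a ribosome assembly gene) and ACAP2 for repeat 3 (chr3:195443021-195443120), all on the minus strand.
PPAT: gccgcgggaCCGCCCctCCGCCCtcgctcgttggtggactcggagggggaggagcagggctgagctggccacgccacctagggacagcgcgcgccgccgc
MDN1: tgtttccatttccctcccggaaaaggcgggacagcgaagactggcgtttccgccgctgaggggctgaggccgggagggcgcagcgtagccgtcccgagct
ACAP2: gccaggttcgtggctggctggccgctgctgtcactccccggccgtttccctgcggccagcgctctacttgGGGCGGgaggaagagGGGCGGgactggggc
The peak centres lay 197 bases downstream of the start of PPAT and 111 downstream of that of MDN1, and 183 bases upstream of that of ACAP2. Their folds were 12.6, 8.87 and 7.46.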

How the data were processed

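Nuclear run-on RNA of WT HT1080 cells was sequenced in 3 libraries with NTP and 3 with no NTP. Per the submitters' processing notes, MACS2 2.2.1, SAMtools, Bowtie2 2.3.5 and cutadapt 1.18 were among the tools and hg38 was the build, with no role or order stated. The deposited gene table holds raw counts per gene. The deposited peak lists hold a fold enrichment (a ratio) and the -log10 p-value and q-value of each peak. No source used here gives the counting tool, its strand setting or the control library of the peaks.

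Libraries were grouped by their labels. Of 26475 gene symbols, 25331 (95.7%) matched a RefSeq gene (GRCh38.p14) and took its class, and 28 had been turned into dates. Class and list shares, genes at equal depth (hypergeometric expectation) and concentration were compared by exact permutation tests, two-sided (SciPy 1.17.1), with Benjamini-Hochberg adjustment over classes or lists. Genes were tested with edgeR 4.0.16 (quasi-likelihood, filterByExpr, TMM, 18 run-on libraries, adjusted p under 0.05), and with DESeq2 1.42.0 and limma voom 3.58.1 as alternatives. The edgeR script was tested on simulated data. Deviations from the group means correlated at 0.792, 0.554 and 0.395 between libraries of the same repeat number (211 genes) and at -0.635 to 0.271 otherwise, so the numbers pair the libraries.

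Totals of 5272 to 164357 counts per library limit what single genes can show. Genes named are those with the highest mean CPM of each class, those with the smallest edgeR p in each direction, and members of the lists. The members and lists were chosen with earlier results of these data known. The tests of single repeats, the olfactory receptor interval and other examples from them were chosen after the values were seen. Alternatives covered scaling, filters, class definitions, the replicate block and left-out libraries.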

Additional observations from a re-analysis of the deposited data

How the results depend on the processing

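No comparison over the 3 repeats passed its test, so the settings below move directions and not calls, apart from 1 count. With the replicate block edgeR again called 0 of 211 genes (smallest adjusted p 0.749), and the sign-flip p of the paired class shares was 0.25 or more. In the 6 WT libraries with the replicate block and genes of 10 or more counts, added after seeing the data, the count of called genes was 1. Protein-coding, rRNA, small stable RNA and microRNA shares kept their direction without any 1 library, at 0.339 to 11.8, -6.51 to -0.145, -2.39 to -0.909 and -2.23 to -0.0455 points.

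Directions turned for other results when 1 library was left out, and the ranges were -14.9 to 3.88 points for the antisense share of pairs, -96.5 to 860 for genes at equal depth, -3.94 to 1.02 for antisense lncRNA, -4.22 to 1.93 for all lncRNA and -0.276 to 0.906 for other lncRNA. Gene spans gave -3.05 to 1.70 under 10 kb, -1.87 to 1.97 at 10 to 100 kb and -0.657 to 1.09 over 100 kb. The lists gave -0.324 to 0.163 for ribosomal protein genes, -0.0605 to 0.0857 for epithelial, -1.02 to 0.184 for mesenchymal, -0.696 to 0.0379 for housekeeping, -0.00415 to 0.0646 for immediate early, -0.00175 to 0.137 for histone and -0.0485 to 0.0776 for snoRNA host genes. RN7SK ran from -3.43 to 0.37 and MIR7641-2 from -8.96 to 6.88 on the log2 scale.

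Other settings turned the span share to -0.341 (limits of 20 and 200 kb), WT minus knockouts to 0.820 for small stable RNA and -3.04 for protein-coding genes without repeat 3 and -1.28 for protein-coding genes with rRNA left out, MIR7641-2 to 0.67 (limma voom) and RN7SK to 0.069 (without repeat 3). A -log10 q of 5 or more left 56, 32 and 99 peaks in repeats 1, 2 and 3, with 1, 0 and 0 shared between repeats 1 and 2, 1 and 3, and 2 and 3, and a stricter overlap left 4, 0 and 1. The cause was not tested. Depth limits single genes, since 41 to 94 genes with no NTP reached 10 counts. Small stable RNA shrank to -0.354 points without repeat 3 and to -0.555 without RN7SK.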

Other observations

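Myosin heavy chain genes of skeletal muscle lie side by side on chromosome 17, and 3 of them (MYH13, MYH4 and MYH3) were lower with NTP in the exact binomial test of repeat 3. That test called 83 of 7513 genes (1.10%), all of them lower. Only 7 of the 7513 held enough counts to be called higher, so the shared direction is no trait of these genes. The interval chr17:10300865-10678417 (RefSeq GRCh38.p14) holds 8 genes of the table, which summed to 26, 23 and 74 counts with NTP and 15, 27 and 47 with no NTP. As CPM (counts scaled to the library total) that was 2170, 3910 and 450 CPM with NTP and 1627, 5121 and 2442 CPM with no NTP, higher with NTP in repeat 1 and lower in repeats 2 and 3. The interval was chosen after its values were seen, and no test over the repeats was made.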
